A study of Homo sapiens with 6 samples.

Results

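The genes described here were 39 genes for folding, quality control and stress signalling in the endoplasmic reticulum (ER), measured in SiHa cells after knockdown of CNN3, which encodes the actin-binding protein calponin 3. They were chosen by name, as the rows of the count table whose Ensembl identifier belonged to 1 of 40 listed symbols, out of 48162 rows in all. VIMP is an older symbol of SELENOS, so the 40 names gave 39 distinct genes. All 39 were in the table, and all 39 passed the filter on low counts, which left 15860 genes for testing. SiHa is an established human cervical cancer cell line. Cells were transfected either with si-NC, a control small interfering RNA, or with si-CNN3#1, a single one directed at CNN3, and total RNA was harvested after 48 h from 3 samples per group. The labels give a change to fresh medium 24 h after transfection in both groups. Both groups were parental SiHa cells in the same serum-containing medium, the labels name no agent that provokes ER stress, and 1 cell line and 1 targeting molecule limit the comparison to this pair.

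Secreted and membrane proteins enter the ER unfolded, where chaperones, lectins and disulfide-forming enzymes fold them, and misfolded molecules are sent back to the cytosol for degradation. When unfolded protein builds up, the sensors IRE1 (gene ERN1), PERK (EIF2AK3) and ATF6 start the unfolded protein response, which raises the genes for these helpers through XBP1 and ATF6 and slows translation through phosphorylation of eIF2. Phosphorylated eIF2 also raises translation of ATF4, which turns on genes for amino acid synthesis and uptake. Kinases other than PERK, such as GCN2, the sensor of amino acid shortage, phosphorylate the same site, so ATF4 targets can rise with or without the chaperone genes of the ER. The comparison here asked which of these held in the RNA of the si-CNN3#1 samples.

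The targeted gene, CNN3 (chr1:94896949-94927278), was at 25.99, 26.77 and 31.44 CPM (counts brought to the same total by TMM normalization) in si-CNN3#1 replicates 1, 2 and 3, and at 56.5, 51.7 and 57.2 CPM in si-NC replicates 1, 2 and 3. Every knockdown sample lay below every control, and the log2 fold change was -0.97 (standard error, SE, 0.06, adjusted p = 2.04e-20, edgeR quasi-likelihood test, p-values adjusted by Benjamini-Hochberg across every tested gene). Total counts ran from 18147028 to 24976517, with all si-NC libraries deeper than all si-CNN3#1 libraries. The 9 marker genes chosen for a cervical carcinoma line, most of them epithelial, summed to between 1794 and 1828 FPKM in the si-CNN3#1 samples. FPKM are counts scaled by gene length and by the total of the sample. In the si-NC samples the sum was between 1816 and 1837, and none of the 9 genes was at 0. CDKN2A, which is not specific to epithelium, held 351.0 FPKM of the sum on average. Within that sum KRT8 and KRT18, keratins of simple epithelia, fell by 12.2% and fell by 11.6%, and TP63, a transcription factor of squamous epithelium, rose (log2 fold change 0.68), with adjusted p of 4.87e-07, 5.31e-05 and 9.58e-04 by the edgeR quasi-likelihood test. KRT7, another keratin, was 4.52% higher without overlap (adjusted p = 0.0832, same test). TP63 had only 59 to 96 counts per sample. KRT5 had 4 to 11 counts and was too low to be tested, and KRT19, EPCAM, CDH1 and CDKN2A had overlapping groups. The part of these markers in the changes of ER genes was not tested. Markers of immune, endothelial, stromal, muscle and liver cells summed to between 5.2 and 6.76 FPKM over 8 genes with si-CNN3#1 and between 5.74 and 5.88 with si-NC, with at most 2 of the 8 at 0 in any sample. In bulk RNA, fewer cells of a type and less RNA per cell cannot be told apart.

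ER chaperone and unfolded protein response genes did not rise together after CNN3 knockdown. A gene was called when its adjusted p was 0.05 or less. Of the 39 genes, 15 were called (38.5%, against 13.3% of all tested genes). That 13.3% was not matched for level, and it also stands beside the counts by role and by motif below. Only ERO1B, ERO1A and XBP1 rose (7.69% of the 39, against 6.17% of all tested genes), and 12 fell (30.8%, against 7.14%). The 12 were SDF2L1, P4HB, HYOU1, OS9, DNAJC10, PDIA6, ATF6B, CRELD2, SEL1L, HERPUD1, CALR and PDIA4, and their decreases were small, from -0.16 to -0.09 on the log2 scale. The median log2 fold change of the 39 genes was -0.04, with 26 of them below 0, against a median of 0.0023 over all tested genes. The groups did not overlap in 19 of the 39 genes (48.7%, against 28.2% of all tested genes), 14 of them lower and 5 higher with si-CNN3#1. Scaled by total counts alone, 7 of the 39 genes fell and 3 rose, and the share of higher genes among all called genes moved from 46.3% to 60.0%. DESeq2 called 9 of the 39, 2 higher and 7 lower. On log2(FPKM + 1), limma called 3 higher and 6 lower, and without a filter on low values it called 2 higher and 1 lower, so that the majority of lower calls was lost.

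**Figure D1:**
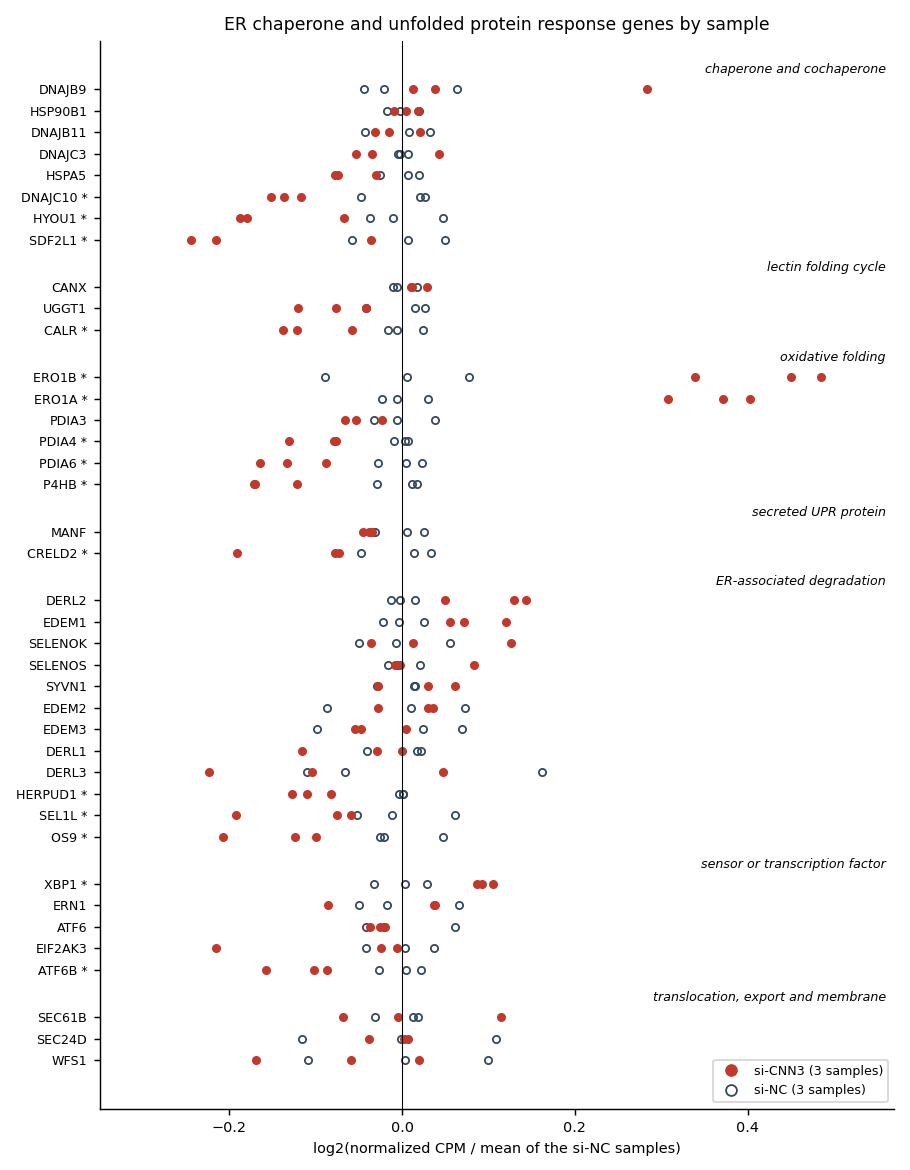
Level of each of the 39 genes in each sample, as the log2 ratio of its normalized CPM to the mean of the si-NC samples, ordered by role and fold change; filled points are the 3 si-CNN3#1 samples, open points the 3 si-NC samples, and an asterisk marks the 15 called genes. ERO1A and ERO1B stand to the right of all others with no overlap, while most called genes sit slightly left of the control samples.

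Taken as a sum, the 39 genes held 0.733%, 0.729% and 0.733% of the counts in si-CNN3#1 replicates 1, 2 and 3. They held 0.748%, 0.746% and 0.746% of the counts in si-NC replicates 1, 2 and 3. The knockdown samples lay below the controls without overlap. The 5 genes with the most counts made up between 56.7% and 57% of this sum with si-CNN3#1 and between 56.4% and 56.6% with si-NC. The size of the sum thus mostly reads the abundant folding machinery. The share of these 5 genes was not lower with si-CNN3#1, but abundant genes differed among themselves. From si-NC to si-CNN3#1, mean CPM went from 1115 to 1037 for CALR and from 454.0 to 407.8 for P4HB. It went from 904.7 to 907.7 for HSP90B1 and from 972.9 to 984.6 for CANX. The share therefore does not show how widely the decrease of the sum was spread.

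Promoters of classical unfolded protein response genes carry short elements known as targets of XBP1 and ATF6, and their matches are shown here to describe the members by sequence. RefSeq promoter windows on GRCh38.p14, each 300 bases with 250 of them before a start site, were held for 35 of the 39 genes, in 41 windows. The ER stress response element ERSE (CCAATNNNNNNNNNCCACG, where N is any base) was searched on both strands and found in 8 of these genes, in 24.4% of their windows, against 0.0769% of 35116 windows of all genes. These were HSPA5, HSP90B1, CALR, CANX, PDIA6, ERO1B, XBP1 and CRELD2. The shorter ERSE-II (ATTGGNCCACG) was found in HERPUD1, SDF2L1 and HYOU1, in 7.32% of the windows of the members, against 0.0541% of all windows. The ATF4-type element CARE (TGATGNAA) was found in 4.46% of all genes with a window. It was in 1 of the 35 genes, HERPUD1 (2.86%), and in 14 of 37 amino-acid stress genes (37.8%). The core of the unfolded protein response element (TGACGTGG) was in DNAJC10 and HYOU1, 5.71% of the 35 genes. It was in 0.927% of all genes with a window, 14.3% of 63 other ER genes and 5.41% of 37 amino-acid stress genes. The match of HYOU1 overlapped an ERSE-II. Only exact matches were counted, so copies of an element that differ in a fixed base were missed. A match of letters is a description of the window, not a binding site. Classical genes of this response are known carriers, so the excess of ERSE and ERSE-II over all windows is no independent evidence. Nor is that of CARE in a list of ATF4 targets. Of the 11 genes with ERSE or ERSE-II, 2 rose, 6 fell and 3 were not called, and of the 24 with neither, 1 rose, 6 fell and 17 were not called.

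The following 250 bases before the start site are given for HSPA5, the best known carrier of the element (chr9:125241344-125241593, minus strand), for HERPUD1, which holds elements of both kinds (chr16:56931892-56932141, plus strand), and for ERO1B, the member with the largest increase (chr1:236281959-236282208, minus strand). They are written 5′ to 3′ on the strand of the gene, with the fixed bases of ERSE, ERSE-II or CARE in capitals.
HSPA5: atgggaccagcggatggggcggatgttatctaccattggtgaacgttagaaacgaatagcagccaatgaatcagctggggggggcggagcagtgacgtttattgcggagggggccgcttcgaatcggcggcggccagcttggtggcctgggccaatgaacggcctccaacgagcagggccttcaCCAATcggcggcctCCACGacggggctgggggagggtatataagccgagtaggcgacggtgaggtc
HERPUD1: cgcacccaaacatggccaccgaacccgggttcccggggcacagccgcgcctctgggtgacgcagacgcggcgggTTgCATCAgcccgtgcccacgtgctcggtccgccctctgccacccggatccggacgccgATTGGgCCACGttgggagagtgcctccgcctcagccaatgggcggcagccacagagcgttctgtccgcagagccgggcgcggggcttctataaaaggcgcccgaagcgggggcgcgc
ERO1B: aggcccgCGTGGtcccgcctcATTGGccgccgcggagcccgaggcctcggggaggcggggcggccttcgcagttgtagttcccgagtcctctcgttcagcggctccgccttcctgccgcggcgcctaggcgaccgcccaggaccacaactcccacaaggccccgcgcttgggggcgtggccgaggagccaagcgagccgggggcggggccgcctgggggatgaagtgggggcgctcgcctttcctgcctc
The exact ERSE match of HSPA5 ended 48 bases before the start site and lay on the strand of the gene. That of ERO1B began 243 bases before the start site and lay on the opposite strand. HERPUD1 held CARE, on the opposite strand, upstream of its ERSE-II. These 3 promoters carried an element of the same class. ERO1B was printed for its increase, so its direction here was fixed by that choice. HSPA5, not called, and HERPUD1, called lower, both had negative log2 fold changes (-0.06 and -0.11). Their confidence intervals overlapped (-0.11 to -0.01 and -0.17 to -0.04), so the difference in call does not show that their changes differed.

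**Figure D2:**
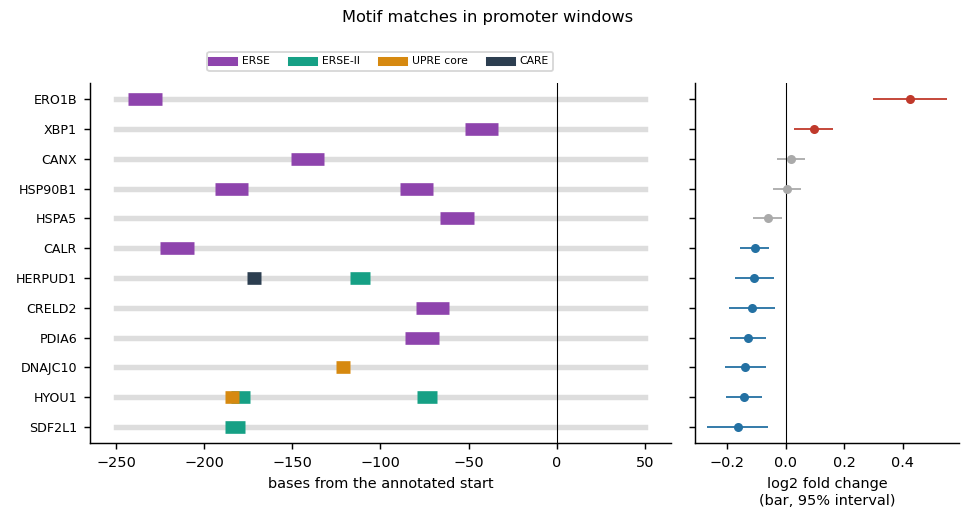
Left, position of each motif match in bases from the annotated start for the 12 genes that held one (grey bar, the 300-base window); right, log2 fold change of the same gene with its 95% interval, red for called higher, blue for called lower and grey for not called. Genes with ERSE are found from the largest increase, ERO1B, to decreases such as that of PDIA6.

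Of the 8 chaperones and cochaperones, 3 fell and 5 were not called. HSPA5 (chr9:125234853-125241330) encodes BiP, the central Hsp70 of the ER and the usual readout of ER stress. It was at 728.6, 704.5 and 706.5 CPM in si-CNN3#1 replicates 1, 2 and 3, and at 753.7, 730.6 and 747.1 CPM in si-NC replicates 1, 2 and 3. All 3 knockdown samples lay slightly below the controls. The log2 fold change was -0.06 (95% interval -0.11 to -0.01, adjusted p = 0.0998 by the edgeR quasi-likelihood test), so HSPA5 was not called, and the unadjusted interval held no increase. With the exact two-sided permutation test, HSPA5, P4HB, ERO1A, ERO1B, XBP1 and CNN3 each gave p = 0.1, the smallest that 3 samples against 3 allow.

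HSP90B1, the Hsp90 of the ER known as GRP94, was at 899.1, 916.5 and 907.4 CPM with si-CNN3#1 and at 893.8, 916.9 and 903.4 CPM with si-NC. The groups overlapped almost fully, and the 95% interval of the change ran from -2.97% to 3.72%. DNAJB9 encodes ERdj4, a cochaperone that XBP1 raises strongly. It was at 21.43, 18.07 and 17.75 CPM with si-CNN3#1 and at 18.39, 17.07 and 17.34 CPM with si-NC. Only si-CNN3#1 replicate 1 stood above the controls, and the log2 fold change of 0.12 was not called (95% interval -0.02 to 0.26, adjusted p = 0.307 by the edgeR quasi-likelihood test). DNAJB11 and DNAJC3, cochaperones of BiP, had log2 fold changes of -0.01 for each and overlapping groups. DNAJB9 overlaps PNPLA8 and THAP5 on the opposite strand, each with more counts (805.3 and 887.3 on average against 373.8), and DNAJB11 overlaps TBCCD1 (444.8 against 2247).

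HYOU1, a large Hsp70-like exchange factor for BiP, was at 206.8, 190.2 and 191.4 CPM with si-CNN3#1 and at 224.0, 211.1 and 215.1 CPM with si-NC. The groups did not overlap, and it fell by 9.45% (log2 fold change -0.14, SE 0.03, adjusted p = 4.82e-04 by the edgeR quasi-likelihood test). DNAJC10, a cochaperone that reduces disulfides ahead of degradation, was at 88.20, 87.27 and 89.39 CPM with si-CNN3#1 and at 93.80, 98.39 and 98.74 CPM with si-NC. It fell by 9.04% without overlap (adjusted p = 0.00472, same test). SDF2L1, a small partner of the BiP cycle, was at 36.54, 37.28 and 42.23 CPM with si-CNN3#1 and at 44.81, 43.51 and 41.58 CPM with si-NC. Its si-CNN3#1 replicate 3 lay among the controls, and the change of -10.7% (adjusted p = 0.0266, same test) was called in 8 of 17 alternative analyses. Left out in turn, si-CNN3#1 replicate 1 or 2 or si-NC replicate 1 or 2 each ended that call, with adjusted p from 0.0685 to 0.179 by the edgeR quasi-likelihood test.

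The lectin cycle retains glycoproteins until they are folded, and of its 3 genes only CALR was called. CALR, which encodes calreticulin and had the highest level of all 39 genes per length (1177 FPKM on average), was at 1071, 1013 and 1025 CPM with si-CNN3#1. It was at 1134, 1102 and 1110 CPM with si-NC. The groups did not overlap, and calreticulin RNA fell by 7.07% (log2 fold change -0.11, SE 0.02, adjusted p = 0.00153 by the edgeR quasi-likelihood test). CANX, the membrane-bound relative calnexin, stayed at between 980.2 and 992.8 CPM against between 965.5 and 984.4 CPM, with a log2 fold change of 0.02 and an adjusted p of 0.723. UGGT1, which tags unfolded glycoproteins for another round, was lower without overlap but not called (log2 fold change -0.08, adjusted p = 0.07). It was called lower without si-CNN3#1 replicate 2 (adjusted p = 0.0421) and without si-NC replicate 2 (0.0427).

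Of the 6 enzymes of disulfide formation, 5 were called, in opposite directions. The ERO1 oxidases, which pass electrons from protein disulfide isomerases to oxygen, rose, while 3 of the 4 protein disulfide isomerases fell. ERO1A (chr14:52639916-52695900) was at 115.8, 121.1 and 123.7 CPM in si-CNN3#1 replicates 1, 2 and 3, and at 93.15, 95.50 and 92.06 CPM in si-NC replicates 1, 2 and 3. Every knockdown sample was above every control by a margin wider than the spread within either group. ERO1A was 28.4% higher (95% interval 22.4% to 34.6%, log2 fold change 0.36, SE 0.03, adjusted p = 3.2e-12 by the edgeR quasi-likelihood test). ERO1B (chr1:236215555-236281985), its lower-level paralog, was at 24.34, 26.92 and 26.29 CPM with si-CNN3#1 and at 18.09, 19.32 and 20.30 CPM with si-NC. The groups did not overlap, and ERO1B was 34.2% higher (95% interval 22.9% to 46.6%, log2 fold change 0.42, SE 0.06, adjusted p = 9.02e-07, same test). ERO1A and ERO1B were called higher in 17 of 17 alternative analyses. ERO1B overlaps GPR137B on the opposite strand, which had 95.33 counts on average against 456.3. The log2 fold change of GPR137B was -0.27 (adjusted p = 0.198 by the edgeR quasi-likelihood test). Whether the counting used strand is not given in the sources used here, and the part of GPR137B in the ERO1B counts was not tested.

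P4HB (chr17:81843159-81860694) had the highest level per length, though not in CPM, among the protein disulfide isomerases listed. It was at 417.2, 403.0 and 403.3 CPM with si-CNN3#1 and at 459.6, 457.5 and 444.8 CPM with si-NC. The groups were clearly apart, with a change of -10.2% (95% interval -13.3% to -6.89%, log2 fold change -0.15, SE 0.03, adjusted p = 8.61e-06 by the edgeR quasi-likelihood test). It was the only one of the 12 lower genes called in 17 of 17 alternative analyses. PDIA6 was at 164.8, 156.3 and 159.7 CPM with si-CNN3#1 and at 178.0, 175.7 and 171.9 CPM with si-NC, and fell by 8.5% without overlap (adjusted p = 0.00158, same test). PDIA4 was at 315.3, 304.2 and 315.9 CPM against 333.7, 330.7 and 334.5 CPM, and fell by 6.36% without overlap (adjusted p = 0.00904, same test, and 0.0741 without si-CNN3#1 replicate 2). PDIA3, the isomerase that works with calnexin and calreticulin, had overlapping groups and a log2 fold change of -0.05 (adjusted p = 0.247).

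**Figure D3:**
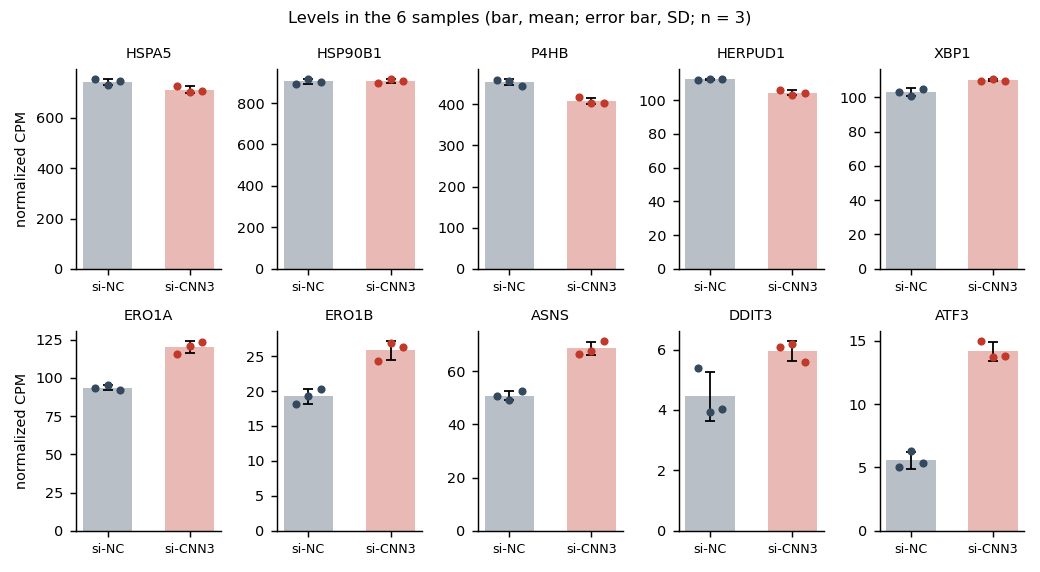
Normalized CPM (vertical axes, from 0) of 7 ER genes and of ASNS, DDIT3 and ATF3 in the si-NC (grey) and si-CNN3#1 (red) samples; bars are means, error bars SD and points the 3 samples. HSPA5 and HSP90B1 bars are nearly level, ERO1A and ERO1B are higher with si-CNN3#1, and ATF3 lies between 5.03 and 6.31 CPM with si-NC and between 13.70 and 15.01 CPM with si-CNN3#1.

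Of the pair of secreted stress proteins, CRELD2 was at 76.90, 70.87 and 76.68 CPM with si-CNN3#1 and at 78.30, 82.80 and 81.68 CPM with si-NC. The groups were separated by a narrow gap, and the change of -7.67% (adjusted p = 0.0372 by the edgeR quasi-likelihood test) was called in 8 of 17 alternative analyses. The call was lost without si-CNN3#1 replicate 2, si-NC replicate 2 or si-NC replicate 3 (adjusted p = 0.272, 0.171 and 0.115). CRELD2 overlaps ALG12 on the opposite strand, which had 1206 counts on average against 1601 and a log2 fold change of -0.05. MANF, a factor released under ER stress, was between 90.65 and 91.28 CPM with si-CNN3#1 and between 91.51 and 95.21 CPM with si-NC and was not called (log2 fold change -0.04, adjusted p = 0.528).

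ER-associated degradation, the recognition and export of misfolded proteins, was represented by 12 genes, of which 3 fell and 9 were not called. OS9, a lectin that delivers misfolded glycoproteins to the membrane ligase, was at 177.2, 164.4 and 174.3 CPM with si-CNN3#1 and at 196.2, 187.1 and 186.5 CPM with si-NC. It fell by 9.43% without overlap (log2 fold change -0.14, SE 0.03, adjusted p = 5.13e-04 by the edgeR quasi-likelihood test). SEL1L, the adaptor of that ligase, was at 86.24, 94.51 and 93.49 CPM with si-CNN3#1 and at 97.69, 102.8 and 95.03 CPM with si-NC. It fell by 7.31% with a narrow gap between the groups (adjusted p = 0.0398, same test), and was called in 8 of 17 alternative analyses. The call was lost without si-CNN3#1 replicate 1, si-NC replicate 1 or si-NC replicate 2 (adjusted p = 0.307, 0.0663 and 0.287).

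HERPUD1, a membrane scaffold of the degradation complex and one of the genes most readily raised by ER stress, was at 106.2, 102.9 and 104.1 CPM with si-CNN3#1. It was at 112.1, 112.5 and 112.5 CPM with si-NC. The control samples agreed closely and every knockdown sample lay below them, with a change of -7.09% (log2 fold change -0.11, SE 0.03, adjusted p = 0.0228 by the edgeR quasi-likelihood test). The decrease of HERPUD1 was called in 10 of 17 alternative analyses. The call was lost without si-CNN3#1 replicate 2 or any 1 si-NC sample (adjusted p from 0.0589 to 0.0885, same test). It was also lost with total-count scaling (adjusted p = 0.0641, same test) and with DESeq2 (adjusted p = 0.0973). EDEM1, a mannosidase-like factor raised by XBP1, was between 60.74 and 63.53 CPM with si-CNN3#1 and between 57.57 and 59.46 CPM with si-NC. DERL2, a channel-associated rhomboid pseudoprotease, was between 37.60 and 40.15 CPM against between 36.03 and 36.71 CPM. Both were higher without overlap but were not called. Their log2 fold changes were 0.08 and 0.11, with adjusted p of 0.205 and 0.163 by the edgeR quasi-likelihood test. The remaining 7 genes (EDEM2, EDEM3, SYVN1, DERL1, DERL3, SELENOS and SELENOK) had log2 fold changes from -0.09 to 0.03 and overlapping groups. DERL3 was the lowest of all 39 genes (92 to 135 counts per sample) and overlaps SMARCB1, which had 2502 counts on average, on the opposite strand. SYVN1 overlaps FAU on the same strand and MRPL49 on the opposite one, each with more counts (2459 and 1565 on average against 1135). FAU was called higher (log2 fold change 0.13, adjusted p = 0.00352 by the edgeR quasi-likelihood test) and MRPL49 was not called (0.07, adjusted p = 0.29). Their part in the SYVN1 counts was not tested. DERL1 overlaps TBC1D31 and DERL2 overlaps MIS12 on the opposite strand.

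Among the 5 sensors and transcription factors, XBP1 rose, ATF6B fell and ERN1, EIF2AK3 and ATF6 were not called. XBP1 (chr22:28794555-28800597), the factor activated when IRE1 splices its RNA, was at 109.3, 110.7 and 109.7 CPM with si-CNN3#1 and at 103.1, 100.6 and 105.0 CPM with si-NC. The groups did not overlap, and XBP1 was 6.85% higher (95% interval 2% to 11.9%, log2 fold change 0.10, SE 0.03, adjusted p = 0.0468 by the edgeR quasi-likelihood test). The call stood close to the threshold, held in 7 of 17 alternative analyses and was lost with any of the 6 samples left out (adjusted p from 0.058 to 0.223). Counts per gene do not separate spliced from unspliced XBP1, and activity of IRE1, PERK and ATF6, which is set at the protein level, was not measured.

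ERN1 was at 12.57, 13.70 and 13.69 CPM with si-CNN3#1 and at 13.96, 13.18 and 12.89 CPM with si-NC, overlapping fully (log2 fold change -0.0006, 95% interval of the change -10.4% to 11.5%). EIF2AK3 was at 16.71, 14.63 and 16.92 CPM against 16.50, 17.03 and 17.43 CPM, where si-CNN3#1 replicate 2 was the lowest sample and the others lay together (log2 fold change -0.08, adjusted p = 0.543). ATF6 was at 84.64, 85.61 and 85.33 CPM against 90.56, 85.57 and 84.37 CPM, with overlapping groups and a log2 fold change of -0.03 (adjusted p = 0.726). ATF6B, the weaker relative of ATF6, was at 75.73, 79.57 and 78.71 CPM with si-CNN3#1 and at 82.93, 84.73 and 85.81 CPM with si-NC. It fell by 7.7% without overlap (adjusted p = 0.0265 by the edgeR quasi-likelihood test) and was called in 9 of 17 alternative analyses. Without si-CNN3#1 replicate 1, si-NC replicate 2 or si-NC replicate 3 the call was lost (adjusted p = 0.14, 0.0796 and 0.107). ATF6B overlaps TNXB on the same strand, which had 302.2 counts on average against 1670 and a log2 fold change of -0.30 (adjusted p = 0.0081), and its part in the decrease was not tested.

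The last 3 genes, SEC61B of the translocation channel, SEC24D of the export coat and WFS1, a membrane protein of ER calcium balance, had overlapping groups. Their log2 fold changes were 0.02, -0.0039 and -0.07, and their unadjusted p values were 0.683, 0.948 and 0.25 by the edgeR quasi-likelihood test.

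Levels per length spanned a wide range, from 4.54 FPKM for DERL3 and 7.31 for EIF2AK3 up to 462.0 for P4HB, 768.2 for HSP90B1, 798.6 for CANX and 1177 for CALR, as means over the 6 samples. HSPA5 stood in seventh place at 186.1 FPKM, below PDIA3 and PDIA4. CANX (808.1 ± 1.81 FPKM with si-CNN3#1 and 789.0 ± 6.33 with si-NC, SD, n = 3) and HSP90B1 (774.1 ± 11.6 and 762.3 ± 12.7) lay near each other. At or above the median level of the members, 11 of 20 genes were called (55%, 9 lower and 2 higher). Below it, 4 of 19 were called (21.1%, 3 lower and 1 higher). Of all tested genes 13.3% were called, a share that was not matched for level. The standard error of the log2 fold change ran from 0.02 to 0.12, so a change of the size seen in P4HB was not detectable in DERL3. Across the 39 genes, Spearman's rho between log2 fold change and mean FPKM was -0.26, against -0.07 over all 15860 tested genes, as a description over genes that share the same 6 libraries.

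**Figure D4:**
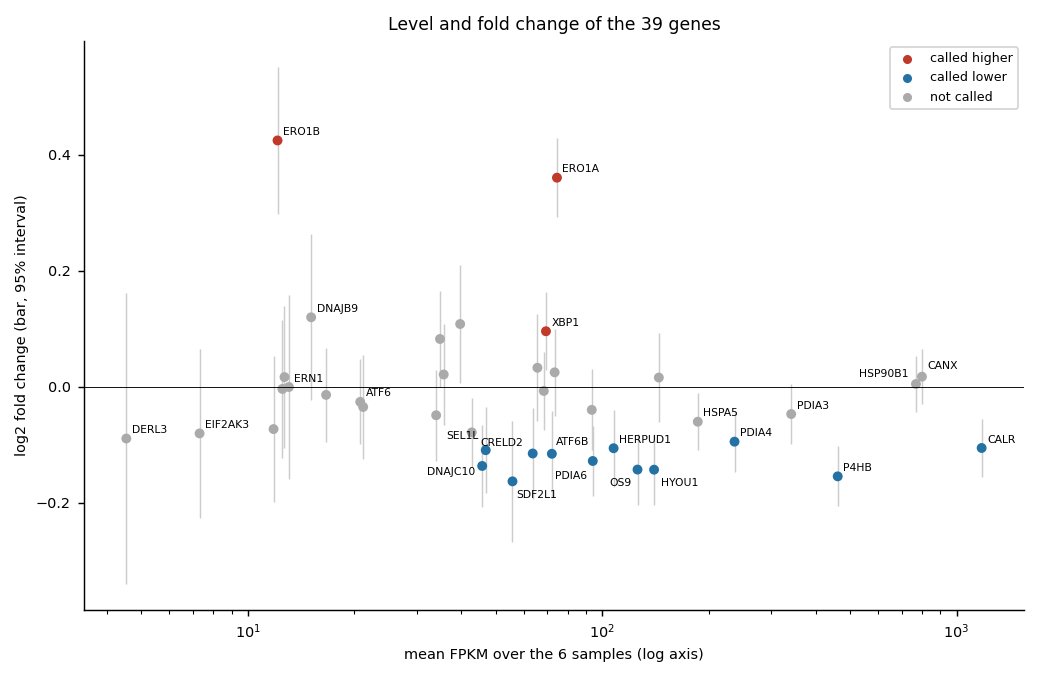
Log2 fold change of the 39 genes (vertical axis, with 95% intervals) against mean FPKM over the 6 samples (log axis); red, called higher; blue, called lower; grey, not called. The lower genes fill the range from 45.85 FPKM (DNAJC10) to 1177 FPKM (CALR), and HSP90B1 and CANX stay near 0 in the same range.

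Most calls among genes of the amino-acid stress response were increases. Of a list of 45 genes, made up of ATF4 itself and genes downstream of it, 24 rose, 2 fell and 19 were not called, with a median log2 fold change of 0.11 and 34 of 45 above 0. The same fit had called 6.17% of all tested genes higher and 7.14% lower. Genes of the arm that PERK and other eIF2 kinases share rose in 10 of 14 cases, with a median of 0.30. Aminoacyl-tRNA synthetases, which load tRNA with amino acids, rose in 7 of 11 cases and the others were not called, and amino acid enzymes and transporters rose in 7 of 20 cases and fell in 1. An increase of ATF4 targets in these libraries was already known when the list was chosen, so its direction is no independent evidence.

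ATF3 (chr1:212565334-212620777), a stress transcription factor, was at 15.01, 13.70 and 13.80 CPM with si-CNN3#1 and at 5.03, 6.31 and 5.38 CPM with si-NC. Every knockdown sample was above every control by more than the spread within either group, with a log2 fold change of 1.33 (SE 0.10, adjusted p = 2.48e-16 by the edgeR quasi-likelihood test). CHAC1, a glutathione-degrading enzyme, and SLC7A11, the cystine transporter, followed with log2 fold changes of 0.90 and 0.62 and no overlap (adjusted p = 1.54e-08 and 1.17e-09, same test). ASNS, asparagine synthetase, was at 66.51, 67.75 and 71.48 CPM with si-CNN3#1 and at 50.69, 49.33 and 52.48 CPM with si-NC, 35% higher without overlap (adjusted p = 1.13e-11, same test).

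DDIT3, the gene of CHOP, was at 6.10, 6.20 and 5.59 CPM with si-CNN3#1 and at 5.38, 3.94 and 4.03 CPM with si-NC. The groups did not overlap, although si-NC replicate 1 stood near the knockdown samples, and the log2 fold change was 0.43 (SE 0.13, adjusted p = 0.0172 by the edgeR quasi-likelihood test), called in 11 of 17 alternative analyses. Without si-CNN3#1 replicate 1 or 2 or si-NC replicate 2 or 3 that call was lost (adjusted p from 0.058 to 0.126). PPP1R15A, which encodes GADD34, the subunit that reverses eIF2 phosphorylation, and TRIB3, a pseudokinase, each had a log2 fold change of 0.30 with no overlap (adjusted p = 2.83e-07 and 7.83e-05, same test). RNA of ATF4 itself was at 344.5, 320.4 and 344.6 CPM against 346.8, 326.9 and 338.7 CPM, overlapping fully (log2 fold change -0.0035, adjusted p = 0.96). DDIT4, an inhibitor of mTORC1, fell by 20.6% (log2 fold change -0.33, adjusted p = 4.82e-14), and SLC1A5, a glutamine transporter, fell by 7.3% (adjusted p = 0.00602).

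**Figure D5:**
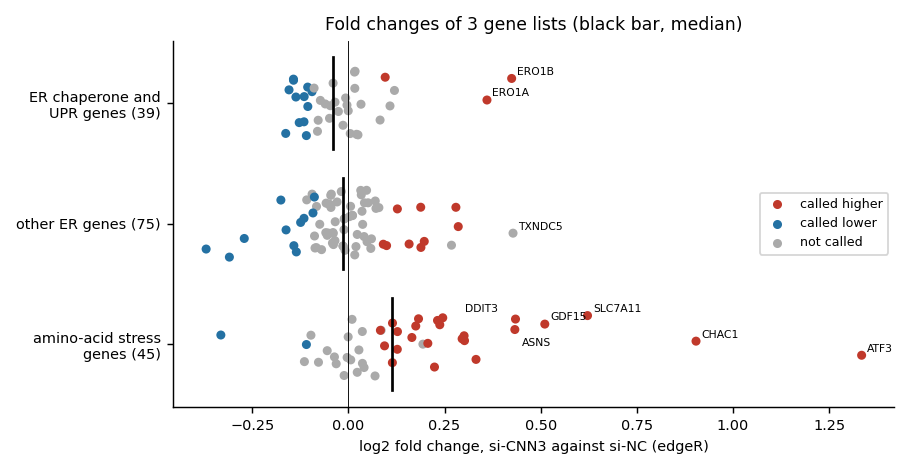
Log2 fold change of each gene (horizontal axis) in the 39 ER chaperone and unfolded protein response genes, 75 other ER genes and 45 amino-acid stress genes, jittered within rows; red, called higher; blue, called lower; grey, not called; black bars, medians of -0.04, -0.01 and 0.11. ERO1A and ERO1B are the only members beyond 0.3, a range that many amino-acid stress genes reach.

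Genes of the ER outside the 39 were read from a list of 76, of which 75 were tested and CREB3L1 was too low. In this list 9 rose, 11 fell and 55 were not called, with a median log2 fold change of -0.01 (12% of the 75 higher and 14.7% lower, against 6.17% and 7.14% of all tested genes). DESeq2 called 5 higher and 10 lower, and the fit without si-CNN3#1 replicate 1 gave 5 and 11. The largest increases among the called genes were those of MBTPS2, the site-2 protease that releases ATF6 from the Golgi membrane (0.29), and of NFYB and NFYC, subunits of the factor that binds the CCAAT end of ERSE (0.28 and 0.20). The largest decreases were those of TOR1A, an ATPase of the ER lumen (-0.37), CREB3L2, a membrane-bound transcription factor related to ATF6 (-0.31), and SRPRA, the receptor of the signal recognition particle (-0.27). These 6 genes had non-overlapping groups and adjusted p from 1.28e-11 to 5.60e-04 by the edgeR quasi-likelihood test. MBTPS1 and TXNDC5 are named after their values were seen. MBTPS1, the site-1 protease that cuts ATF6 ahead of MBTPS2, fell by 6.2% (adjusted p = 0.0102, and 0.0732 without si-CNN3#1 replicate 3 or 0.0501 without si-NC replicate 2). TXNDC5, a disulfide isomerase, had the highest fold change of the list (0.43) but few counts (38 to 63 per sample), overlapping groups and no call (adjusted p = 0.158).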

How the data were processed

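RNA of 3 si-CNN3#1 and 3 si-NC samples was sequenced, with groups and replicate numbers read off the sample titles. The authors aligned reads with TopHat2 2.0.9 and Bowtie2 2.0.6 and deposited raw counts per Ensembl gene, with HTSeq and DESeq 1.10.1 also named in the processing notes. Genome build, annotation, strand setting and treatment of multiply matching reads are not given in the sources used here. The authors also deposited FPKM values, which are those counts scaled by gene length and column total and hold no further measurement. Names and positions follow GENCODE release 29 (GRCh38), which names 45342 of 48162 identifiers. The samples are described as independent assays. Where that means separate transfections of 1 line, p-values measure the spread between those cultures only.

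Counts were compared with the quasi-likelihood test of edgeR 4.0.16 (R 4.3.3), with TMM scaling, the default filterByExpr and no covariate. A gene was called at an adjusted p of 0.05 or less (Benjamini-Hochberg, 15860 tested genes). CPM values are TMM-normalized. Standard errors were derived from the log2 fold change and its F statistic. Total counts of 18147028 to 24976517 per sample gave a common coefficient of variation of 0.0232. Alternatives were RLE, upper quartile and total-count scaling, DESeq2 1.42.0, a block for the replicate number, omission of each sample, thinning to the smallest total, no filter, a minimum of 10 counts per sample, and limma 3.58.1 on FPKM (pseudocount 1 or 0.1 before log2, genes averaging 1 FPKM or more, or unfiltered). A change on the log2(FPKM + 1) scale understates low genes. Each tool was tested on simulated data with 200 changed genes.

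The members, the other lists and the motifs were chosen with earlier results of these data known, so no p is given over a list. All members are accounted for. Called members are given with values, as are sensors, XBP1, HSPA5, HSP90B1 and DNAJB9. Of the amino-acid stress genes, ATF4, DDIT3, TRIB3, ATF3, CHAC1, PPP1R15A, ASNS and the 3 largest called changes each way are named, and of other ER genes the latter. Promoter windows are RefSeq windows on GRCh38.p14. DERL1, DERL3, PDIA3 and SEC24D are without one here. FPKM served to compare levels between genes.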

Additional observations from a re-analysis of the deposited data

How the results depend on the processing

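Over 17 alternative analyses, ERO1A, ERO1B, P4HB and CNN3 kept their direction and call in each, and no called member reversed. Of 680 values of single members and CNN3, 576 kept direction and side of the threshold, 63 lost a call, 4 gained one and 37 changed sign without being called. Counting depth limits the members with few counts, such as DERL3, EIF2AK3 and ERN1. With counts thinned to the smallest total, 14 members were called (2 higher and 12 lower).

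Total-count scaling called 7 members lower and 10 in all. DESeq2 called 1074 genes (433 higher and 641 lower), 9 members (7 lower) and 5 other ER genes higher. On log2(FPKM + 1), limma called 1363 genes (564 lower), 9 members (6 lower), 1 amino-acid stress gene lower and 6 other ER genes lower. On log2(FPKM + 0.1) it called 1353 genes (564 lower), 9 members (6 lower), 1 amino-acid stress gene lower and 6 other ER genes lower. Without a filter, limma called 585 genes (316 higher and 269 lower), 3 members (1 lower), 15 amino-acid stress genes (14 higher and 1 lower) and 10 other ER genes (5 higher and 5 lower), over 30502 genes tested. Over the same 30502 genes, edgeR without a filter called 1949 genes and 14 members (12 lower). The cause of the fewer calls with limma was not tested. Leaving out each sample in turn gave 1551 to 1747 called genes, 10 to 14 members (2 higher, 8 to 12 lower), 20 to 22 amino-acid stress genes and 15 to 20 other ER genes, of which 5 to 9 were higher, with 5 without si-CNN3#1 replicate 1.

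Samples share replicate numbers across groups, but the correlations of deviations of same-numbered samples were 0.0517, 0.107 and 0.0757, so the numbers were not taken to pair the samples, although each sample correlated best with its own number. With the replicate number as a block, 2727 genes, 17 members (3 higher and 14 lower), 27 amino-acid stress genes and 24 other ER genes (9 higher and 15 lower) were called. UGGT1 and HSPA5 gained a call with the block, UGGT1 with an adjusted p of 0.0149. HSPA5 was called lower with the block only (adjusted p = 0.00774 by the edgeR quasi-likelihood test), against adjusted p from 0.0573 to 0.398 in the other alternatives.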
